A study of Homo sapiens with 2 samples.

Results

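BNIP3, BNIP3L, NDRG1, ANGPTL4, ADM and VEGFA are 6 genes known as targets of the low-oxygen response, and they were followed here by name among 16387 genes counted in both libraries of a single-cell experiment. The cells were MCF10A, a line of human breast epithelium that is immortal but forms no tumours and needs epidermal growth factor (EGF) to proliferate. EGF was given to all but the unstimulated cells. Some cultures also received, 15 h later, a blocker of MEK (the kinase above ERK) or of PI3K (the lipid kinase above AKT). The 8 conditions were unstimulated cells (0 h), cells at 15 h of EGF, and, at both 20 h and 30 h of EGF, cells with the MEK inhibitor, cells with the PI3K inhibitor and cells with EGF alone. Each of 2 biological replicates was 1 pooled library that held all conditions, so n = 2 for every condition. Neither inhibitor is named and no dose is stated in the sources read, and the labels name no change in oxygen. The genes were chosen by their summed counts in these same cells, with the response to the inhibitors known, so their levels and fold changes are given as a description and without a test.

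When oxygen is low, the prolyl hydroxylases of the EGLN family no longer mark the HIF alpha subunits (HIF1A and EPAS1) for the ubiquitin ligase subunit VHL, and the stabilised alpha subunits pair with ARNT on short DNA motifs that hold ACGTG or GCGTG. The genes they act on supply glucose handling, removal of mitochondria, and signals to blood vessels. None of the genes belongs to that pathway alone. BNIP3 and BNIP3L, receptors that bring mitochondria to autophagy, are also known FOXO targets in muscle; ANGPTL4, a secreted inhibitor of lipoprotein lipase, is also induced through PPAR receptors and by glucocorticoids; NDRG1, a cytoplasmic stress-response and growth-restraining protein, is phosphorylated by SGK1. ADM encodes the vasodilator peptide adrenomedullin, and VEGFA the main growth factor for endothelial cells.

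The RefSeq promoter table, built on GRCh38.p14, held 3 of the 6 genes. The 250 bases before the start of each are shown because they can be searched for the letters that HIF dimers bind, and run 5′ to 3′ on the gene's own strand. Capitals mark ACGTG, which reads CACGT when it lies on the other strand, as well as the second motif GCGTG, which then reads CACGC.
BNIP3, chr10:131981924-131982173, minus strand: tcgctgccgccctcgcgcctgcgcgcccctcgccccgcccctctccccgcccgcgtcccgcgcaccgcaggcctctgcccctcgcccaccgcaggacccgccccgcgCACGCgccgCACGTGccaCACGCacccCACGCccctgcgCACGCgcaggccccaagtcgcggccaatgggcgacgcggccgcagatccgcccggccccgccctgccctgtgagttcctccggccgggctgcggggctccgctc
ANGPTL4, chr19:8363905-8364154, plus strand: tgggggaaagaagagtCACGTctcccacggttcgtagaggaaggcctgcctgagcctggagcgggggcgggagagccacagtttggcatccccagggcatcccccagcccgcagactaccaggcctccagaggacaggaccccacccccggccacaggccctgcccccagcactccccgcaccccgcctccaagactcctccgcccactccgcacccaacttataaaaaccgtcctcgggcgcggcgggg
ADM, chr11:10304823-10305072, plus strand: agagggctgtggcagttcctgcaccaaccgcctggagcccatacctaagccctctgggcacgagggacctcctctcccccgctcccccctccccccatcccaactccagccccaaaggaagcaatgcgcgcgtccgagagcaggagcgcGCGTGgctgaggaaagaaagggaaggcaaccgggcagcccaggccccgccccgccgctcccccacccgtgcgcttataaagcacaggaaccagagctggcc
The BNIP3 window held 6 matches, which begin between 104 and 143 bases before the start, and 2 of them are the same palindrome read on both strands. ANGPTL4 and ADM held 1 match each. Of 35116 promoter windows of this length, 43.2% held ACGTG or GCGTG on either strand, 18.5% ACGTG and 32.2% GCGTG. The FOXO motif TGTTTAC, searched on both strands, was found in 0 of the 3 windows and in 2.98% of all windows. BNIP3L, NDRG1 and VEGFA are only named. The start sites are those of RefSeq, and the GENCODE genes given next begin farther upstream, so the ANGPTL4 and ADM windows lie inside those gene bounds and the BNIP3 window overlaps them in part.

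All 6 genes passed the filter on low counts, with between 585 UMIs (VEGFA) and 4021 UMIs (NDRG1) over both libraries. On GRCh38, in GENCODE v29, BNIP3 lies at chr10:131966455-131982013 on the minus strand, BNIP3L at chr8:26382898-26505636 on the plus strand and NDRG1 at chr8:133237171-133302022 on the minus strand. ANGPTL4 lies at chr19:8363289-8374373, ADM at chr11:10304680-10307397 and VEGFA at chr6:43770184-43786487, all on the plus strand. BNIP3, ANGPTL4 and VEGFA overlap antisense genes that were counted too (AL162274.2 and AL162274.1, RAB11B-AS1, and AL136131.3), and since the strand setting is not given, reads of both partners may have been mixed. BNIP3 also has 39 processed pseudogenes in that annotation, of which 0 are listed in both tables, so its counts may hold or lack reads shared with them.

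Library 1 held 2616 cells and 33089090 UMIs, library 2 held 2221 cells and 28542571 UMIs, and 0 barcodes were in common. A median cell had 12259 UMIs in library 1 and 12332 in library 2. Summed over a condition, the counts ran from 213208 UMIs, in 29 unstimulated cells of library 2, up to 8508781. Values at 0 h and 15 h in library 2, which had 29 and 64 cells, therefore rest on few UMIs of each gene. Levels are given in CPM, the UMIs of the gene scaled by all UMIs of the sum, library 1 before library 2, and fold changes as log2 with a standard error (SE) from edgeR after TMM scaling. Scaling to library totals in place of TMM lowered the median log2 fold change of all genes to -0.22 for the PI3K inhibitor at 30 h, to -0.14 at 20 h and to -0.16 for the MEK inhibitor at 30 h, and raised it to 0.21 for 15 h of EGF against 0 h.

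All 12 mammary epithelial markers were present, with a summed level of 13200 to 28200 CPM. Of 8 fibroblast markers 3 were in both tables, and their summed level was 49 and 23.7 CPM with the MEK inhibitor at 30 h against 13.3 and 9.39 CPM with EGF alone, 29.3 and 20 CPM against 14.4 and 11.2 CPM at 20 h, and 96.3 and 93.8 CPM at 0 h. Among endothelial markers 1 of 7 was in both tables, at 0 to 2.67 CPM, and among leukocyte markers 3 of 8, at 1.51 to 37.5 CPM. The summed leukocyte markers stood at 3.18 and 5.41 CPM with the MEK inhibitor and 1.51 and 2.37 CPM with the PI3K inhibitor at 30 h, against 18.7 and 16.6 CPM with EGF alone. The epithelial markers stood at 23300 and 28200 CPM with the MEK inhibitor and 15500 and 22500 CPM with the PI3K inhibitor at 30 h, against 13200 and 16700 CPM. The conditions also differed in cell cycle. Cells called G1 made up 86.4% and 74% with the PI3K inhibitor at 30 h and 66.5% and 33.9% with the MEK inhibitor, against 25.3% and 9.88% with EGF alone. The part of the markers in the values below was not tested. Fold changes of the inhibitors within G1-called cells are given beside them.

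**Figure D1:**
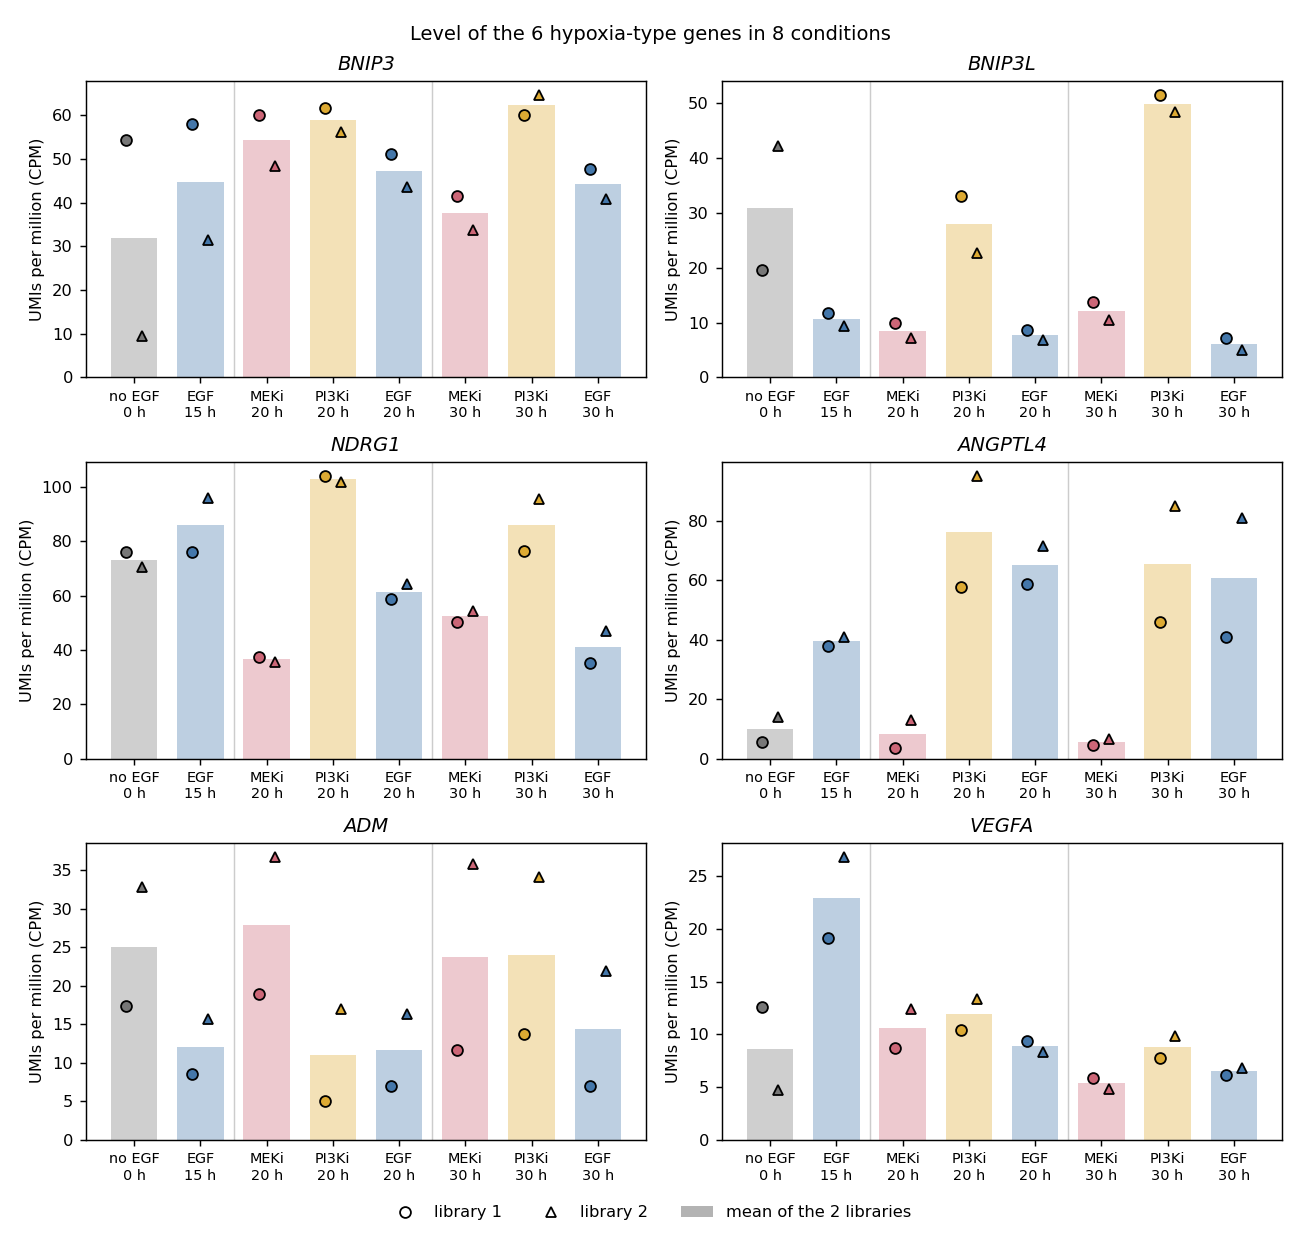
Level of each gene (CPM, y axis) in the 8 conditions (x axis), with circles for library 1, triangles for library 2 and bars for their mean. BNIP3L stands highest with the PI3K inhibitor at 30 h (51.4 and 48.3 CPM), while ANGPTL4 stays at or below 12.8 CPM in all 4 sums with the MEK inhibitor.

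BNIP3L, the mitophagy receptor also called NIX, was the gene of the 6 with the highest fold change in PI3K-inhibited cells. Its level was 33 and 22.7 CPM with the PI3K inhibitor at 20 h against 8.73 and 6.89 CPM with EGF alone, and 51.4 and 48.3 CPM at 30 h against 7.2 and 5.08 CPM. The groups did not overlap at either time, and both libraries were on the same side. The log2 fold change was 2.00 (SE 0.21) at 20 h and 3.28 (SE 0.18) at 30 h, which is 3.99-fold and 9.68-fold. Within cells called G1 it was 1.68 and 2.20. In G2/M-called cells at 30 h BNIP3L stood at 51.8 and 46.2 CPM with the PI3K inhibitor and at 5.08 and 5.12 CPM with EGF alone, so the higher level was seen in both of these phases.

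In MEK-inhibited cells BNIP3L was close to EGF alone at 20 h, at 9.88 and 7.2 CPM against 8.73 and 6.89 CPM, a log2 fold change of 0.16 (SE 0.28). At 30 h it was at 13.8 and 10.5 CPM with the MEK inhibitor against 7.2 and 5.08 CPM with EGF alone, 1.15 (SE 0.23) on the log2 scale, and the groups did not overlap. Within G1-called cells this was 0.62, and there it was not past the threshold. Set against the PI3K inhibitor, the MEK inhibitor gave -1.83 (SE 0.23) at 20 h and -2.12 (SE 0.15) at 30 h.

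EGF alone went with a low BNIP3L level throughout. It was 19.5 and 42.2 CPM at 0 h, the second value from 9 UMIs, and 11.8 and 9.44 CPM at 15 h. The fold changes were -1.19 (SE 0.32) for 15 h against 0 h and -0.90 (SE 0.27) for 30 h against 15 h on the log2 scale. Without the library block neither was past the threshold. The fold change of 30 h against 15 h was also not past it in G1-called cells, with the 2 conditions alone, or without cells above 20000 UMIs. Between 15 h and 30 h of EGF the value in G1-called cells was 0.15, of the opposite sign, from 49 and 5 UMIs at 15 h and 11 and 3 UMIs at 30 h. The libraries differed in direction there, at 14.9 CPM at 30 h against 11.7 CPM at 15 h and 6.99 against 12.4 CPM.

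BNIP3, the related mitophagy receptor, varied little beside BNIP3L. PI3K-inhibited cells had 61.7 and 56.2 CPM at 20 h against 51.2 and 43.5 CPM with EGF alone, and 60.1 and 64.6 CPM at 30 h against 47.8 and 40.9 CPM. The groups did not overlap at either time, and the log2 fold changes were 0.45 (SE 0.15) and 0.75 (SE 0.13). In MEK-inhibited cells it was 60.1 and 48.5 CPM at 20 h and 41.5 and 33.7 CPM at 30 h, and both pairs overlapped those with EGF alone. The log2 fold changes were 0.25 (SE 0.15) and -0.07 (SE 0.14). In G1-called cells the values were 0.66 at 20 h and 0.50 at 30 h with the PI3K inhibitor, the second not past the threshold, and 0.52 and -0.11 with the MEK inhibitor. Unstimulated cells gave 54.4 and 9.38 CPM, the second from 2 UMIs, and cells at 15 h gave 58.1 and 31.5 CPM, so the libraries differed most at these times.

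NDRG1 was higher in PI3K-inhibited cells at both times, and with the MEK inhibitor it was lower at 20 h and higher at 30 h. Its level was 104 and 102 CPM with the PI3K inhibitor at 20 h against 58.8 and 64.2 CPM with EGF alone. At 30 h it was 76.3 and 95.7 CPM against 35.2 and 47.1 CPM. These groups did not overlap, and the log2 fold changes were 0.90 (SE 0.12) and 1.29 (SE 0.12), or 0.88 and 1.04 in G1-called cells. The MEK inhibitor gave 37.6 and 35.4 CPM at 20 h, below both values with EGF alone, and 50.4 and 54.3 CPM at 30 h, above both. Those fold changes were -0.71 (SE 0.14) and 0.51 (SE 0.12) on the log2 scale. In G1-called cells they were -0.58 and 0.37, and neither was past the threshold there.

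The level of NDRG1 with EGF alone was lower late in the time course. It was 76.1 and 70.4 CPM at 0 h, 76.1 and 96 CPM at 15 h, 58.8 and 64.2 CPM at 20 h, and 35.2 and 47.1 CPM at 30 h. The fold change of 30 h against 15 h was -1.07 (SE 0.13), and in G1-called cells -0.91. The values at 30 h with the PI3K inhibitor thus lie within the range of 0 h and 15 h. SGK1, the kinase that phosphorylates NDRG1, rose by 0.46 to 0.53 on the log2 scale with either inhibitor at both times (edgeR adjusted p from 0.00015 to 0.011), but each call was lost without the library block (edgeR adjusted p from 0.32 to 0.62), and those for the PI3K inhibitor also with library totals (edgeR adjusted p = 0.067 at 20 h and 0.071 at 30 h).

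ANGPTL4 was the gene of the 6 with the lowest fold change in MEK-inhibited cells. Its level was 3.42 and 12.8 CPM with the MEK inhibitor at 20 h against 58.8 and 71.4 CPM with EGF alone. At 30 h it was 4.54 and 6.7 CPM against 40.8 and 80.8 CPM. The groups were far apart at both times, and the log2 fold changes were -2.99 (SE 0.21) and -3.26 (SE 0.19). At 20 h the size differed between libraries, at -3.88 in library 1, from 9 UMIs, and -2.37 in library 2. Within G1-called cells the fold changes were -1.86 and -2.77.

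In PI3K-inhibited cells ANGPTL4 stayed near the level with EGF alone when all phases were summed. It was 57.6 and 94.9 CPM at 20 h against 58.8 and 71.4 CPM, and 46 and 85 CPM at 30 h against 40.8 and 80.8 CPM. The groups overlapped at both times, and the log2 fold changes of 0.30 (SE 0.14) and 0.34 (SE 0.13) became 0.16 and 0.11 with scaling to library totals. In G1-called cells the value was 0.87 and past the threshold at both times, while over all cells only that at 30 h was past it. At 20 h G1-called cells had 42 and 77.5 CPM against 30.9 and 28.5 CPM, and S-called cells 90.1 and 120 CPM against 55 and 65.4 CPM. At 30 h G1-called cells had 47.1 and 92 CPM against 23.1 and 62.9 CPM. G2/M-called cells went the other way at 30 h, at 34.5 and 64.4 CPM against 50.8 and 80.9 CPM. The MEK inhibitor set against the PI3K inhibitor gave -3.28 (SE 0.22) at 20 h and -3.61 (SE 0.18) at 30 h.

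EGF itself went with a higher ANGPTL4 level. Unstimulated cells had 5.58 and 14.1 CPM, from 8 and 3 UMIs, and cells at 15 h of EGF had 38 and 40.9 CPM, a log2 fold change of 2.32 (SE 0.40). The sums with the MEK inhibitor overlapped those of unstimulated cells at both 20 h and 30 h. Among cells with EGF alone at 20 h, ANGPTL4 differed by called phase. It was 166 and 144 CPM in cells called G2/M, 55 and 65.4 CPM in cells called S, and 30.9 and 28.5 CPM in cells called G1. At 30 h other cells with EGF alone gave 50.8 and 80.9 CPM in G2/M, 24.7 and 98.7 CPM in S, and 23.1 and 62.9 CPM in G1, where the phases overlapped across libraries. Under the MEK inhibitor the level was 14.8 CPM or less in every phase class with at least 20 cells.

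**Figure D2:**
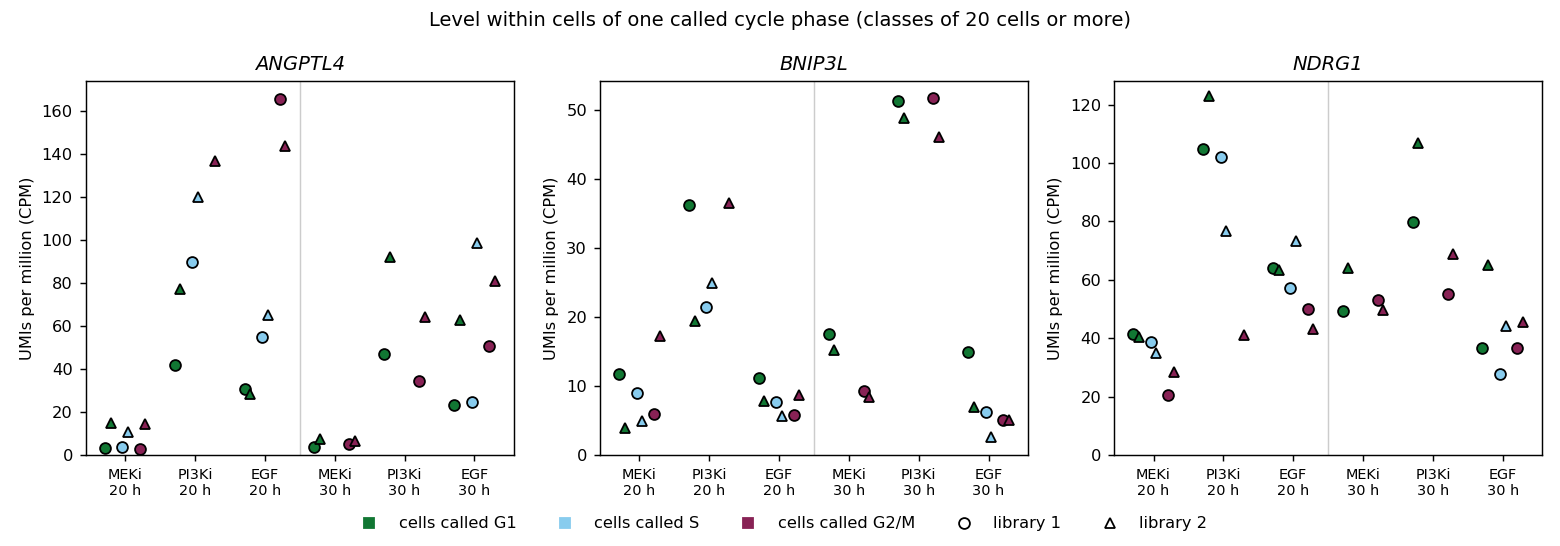
Level of ANGPTL4, BNIP3L and NDRG1 (CPM, y axis) within cells called G1, S or G2/M, for the 6 conditions at 20 h and 30 h (x axis), with 1 point per library and phase class of at least 20 cells. ANGPTL4 with EGF alone at 20 h stands at 166 and 144 CPM in G2/M-called cells and at 30.9 and 28.5 CPM in G1-called cells, and BNIP3L with the PI3K inhibitor at 30 h is near 50 CPM in both.

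ADM, the adrenomedullin gene, was higher in library 2 than in library 1 in all 8 conditions, so its differences are best read within a library. MEK-inhibited cells had 19 and 36.7 CPM at 20 h against 6.95 and 16.3 CPM with EGF alone, and 11.6 and 35.8 CPM at 30 h against 6.94 and 21.9 CPM. Each library was higher with the inhibitor, and the groups overlapped across libraries at 30 h but not at 20 h. The log2 fold changes were 1.30 (SE 0.21) and 0.90 (SE 0.17). Under the PI3K inhibitor ADM was 5.08 and 17 CPM at 20 h, on either side of EGF alone, and 13.8 and 34.2 CPM at 30 h, which gave -0.02 (SE 0.26) and 0.97 (SE 0.17). Within G1-called cells ADM was at 1.45 and 1.30 with the MEK inhibitor and at -0.06 and 1.23 with the PI3K inhibitor. The reference there was small, at 18 and 8 UMIs of ADM with EGF alone at 20 h and 6 and 6 UMIs at 30 h. Without the library block, none of the 5 ADM fold changes named here or below as past the threshold was past it. Unstimulated cells had 17.4 and 32.8 CPM and cells at 15 h of EGF 8.51 and 15.7 CPM, a log2 fold change of -1.19 (SE 0.34).

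VEGFA, the least counted of the genes, was highest at 15 h of EGF. It was 12.6 and 4.69 CPM at 0 h (the second from 1 UMI), 19.1 and 26.8 CPM at 15 h, 9.38 and 8.34 CPM at 20 h and 6.14 and 6.84 CPM at 30 h with EGF alone. The log2 fold change of 15 h against 0 h was 0.61 (SE 0.35) and not past the threshold. That of 30 h against 15 h was -1.77 (SE 0.25), and both libraries were lower at 30 h. In PI3K-inhibited cells VEGFA was 10.4 and 13.4 CPM at 20 h and 7.78 and 9.81 CPM at 30 h, which gave 0.48 (SE 0.26) and 0.68 (SE 0.25). In MEK-inhibited cells it was 8.74 and 12.4 CPM at 20 h and 5.9 and 4.82 CPM at 30 h, and the fold changes were 0.27 (SE 0.26) and -0.16 (SE 0.27). With the MEK inhibitor at 20 h the libraries lay on opposite sides of EGF alone, and at 30 h both levels were below it. In G1-called cells the fold changes were higher with both inhibitors, at 0.88 and 1.17 with the PI3K inhibitor and 1.00 and 0.58 with the MEK inhibitor, and the last is of the opposite sign to the value over all cells. None of these values in G1-called cells was past the threshold, although that for the PI3K inhibitor at 30 h was past it over all cells. They rest on few counts, since G1-called cells with EGF alone held 16 and 4 UMIs of VEGFA at 20 h and 0 and 5 UMIs at 30 h. In CPM the libraries differed in direction at 30 h. G1-called cells had 8.07 and 10.5 CPM with the PI3K inhibitor and 7 and 4.94 CPM with the MEK inhibitor, against 0 and 11.7 CPM.

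**Figure D3:**
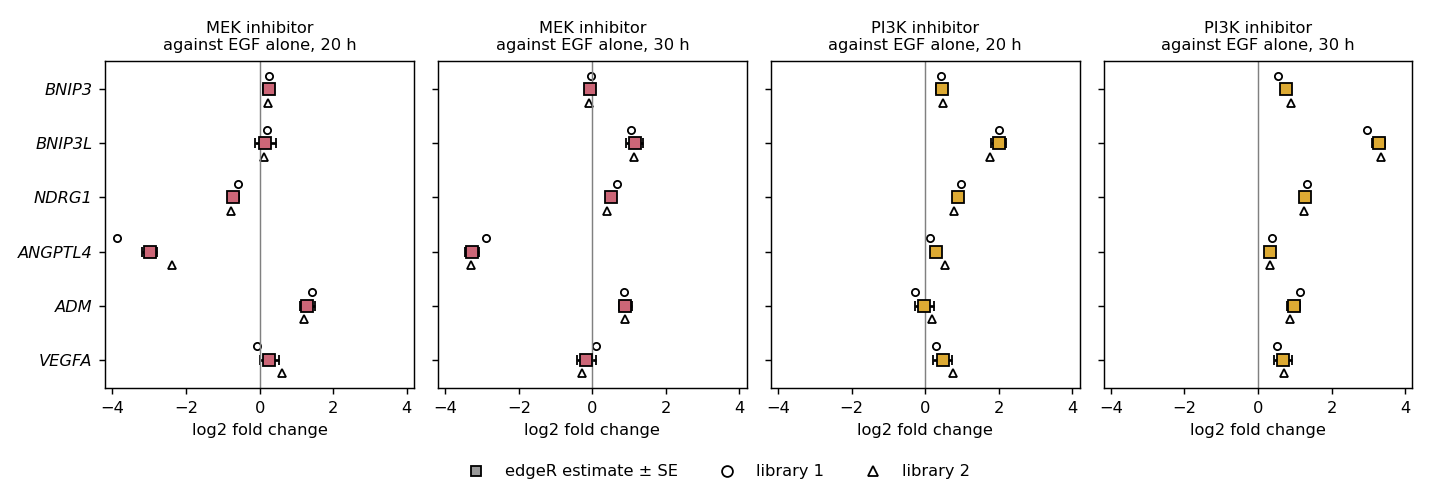
Log2 fold change (x axis) of each gene (y axis) with the MEK or PI3K inhibitor against EGF alone at 20 h and 30 h, with squares for the edgeR estimate, bars for its SE, and circles and triangles for libraries 1 and 2. ANGPTL4 lies at -2.99 and -3.26 with the MEK inhibitor and BNIP3L at 2.00 and 3.28 with the PI3K inhibitor, while both inhibitors share the same EGF-alone sums at each time.

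Counts of the genes past the threshold, an edgeR adjusted p of 0.05 over 11147 genes, are given beside the share of all tested genes that were. For the MEK inhibitor at 20 h, 1 of the 6 was higher, where 4.8% of all genes were, and 2 were lower, where 7.15% were (11.9% in either direction). At 30 h 3 were higher, where 18.9% of all genes were, and 1 was lower, where 19% were (37.8% in either direction). For the PI3K inhibitor 3 of 6 were higher at 20 h, where 11.4% of all genes were higher and 11.9% lower (23.4% in either direction). At 30 h 6 of 6 were higher, where 19.7% of all genes were higher and 20% lower (39.7% in either direction). These contrasts chose the genes, so nothing is read from the counts. For 15 h of EGF against 0 h, 1 was higher, where 14.1% of all genes were, and 2 lower, where 13.9% were (28% in either direction). For 30 h against 15 h, 3 were lower, where 8.08% of all genes were lower and 9.98% higher (18.1% in either direction).

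The MEK inhibitor set against the PI3K inhibitor put 1 gene higher and 3 lower at 20 h, where 11.2% of all genes were higher and 10.4% lower (21.6% in either direction). At 30 h 5 were lower, where 20.3% of all genes were lower and 21.2% higher (41.6% in either direction). ADM was the gene that was higher at 20 h, at 1.32 (SE 0.23) on the log2 scale. ADM was also the gene not past the threshold at 30 h, where its levels of 11.6 and 35.8 CPM with the MEK inhibitor and 13.8 and 34.2 CPM with the PI3K inhibitor overlapped, at -0.07 (SE 0.15).

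The number of cells in which a gene was seen followed its summed level. After each cell was thinned to 6500 UMIs, shares were compared. At 30 h this left out 28 and 53 shallower PI3K-inhibited cells, 28 and 47 MEK-inhibited cells and 22 and 19 cells with EGF alone. BNIP3L had a UMI in 26.7% (exact 95% interval 22.1 to 31.7) and 27.5% (23.4 to 31.9) of cells with the PI3K inhibitor at 30 h. With EGF alone these shares were 5.38% (2.81 to 9.21) and 4.31% (2.37 to 7.12). ANGPTL4 had a UMI in 2.83% and 4.39% of cells with the MEK inhibitor at 30 h against 17.9% and 32.3% with EGF alone, and NDRG1 in 35.6% and 47.5% with the PI3K inhibitor against 21.1% and 24% with EGF alone. Without thinning, at median depths of 11952 and 11650 UMIs with the PI3K inhibitor and 16000 and 15371 UMIs with EGF alone, the BNIP3L shares were 43.1% and 43.8% against 10.2% and 7.27%. The unthinned shares of ANGPTL4 were 4.91% and 8.6% with the MEK inhibitor against 31.8% and 48% with EGF alone, and those of NDRG1 were 56.1% and 62.5% with the PI3K inhibitor against 39.2% and 45.1%. Positive cells held few UMIs, on average 1.28 and 1.19 of BNIP3L in the PI3K-inhibited cells at 30 h, with a maximum of 3. The intervals cover counting error only, and the experiment holds no cell type that lacks these genes from which a share due to free RNA could be read. Having a UMI of one gene was at most weakly tied to having one of another in the same cells, with phi between -0.13 and 0.23 over all pairs, conditions and libraries for which it was computed. For BNIP3 and BNIP3L it was 0.16 and 0.23 with the PI3K inhibitor at 20 h and 0.10 and 0.07 at 30 h. In the other conditions that pair lay between -0.11 and 0.10. With so few UMIs per positive cell phi can stay low even where genes go together, so no lack of a tie is read from it.

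**Figure D4:**
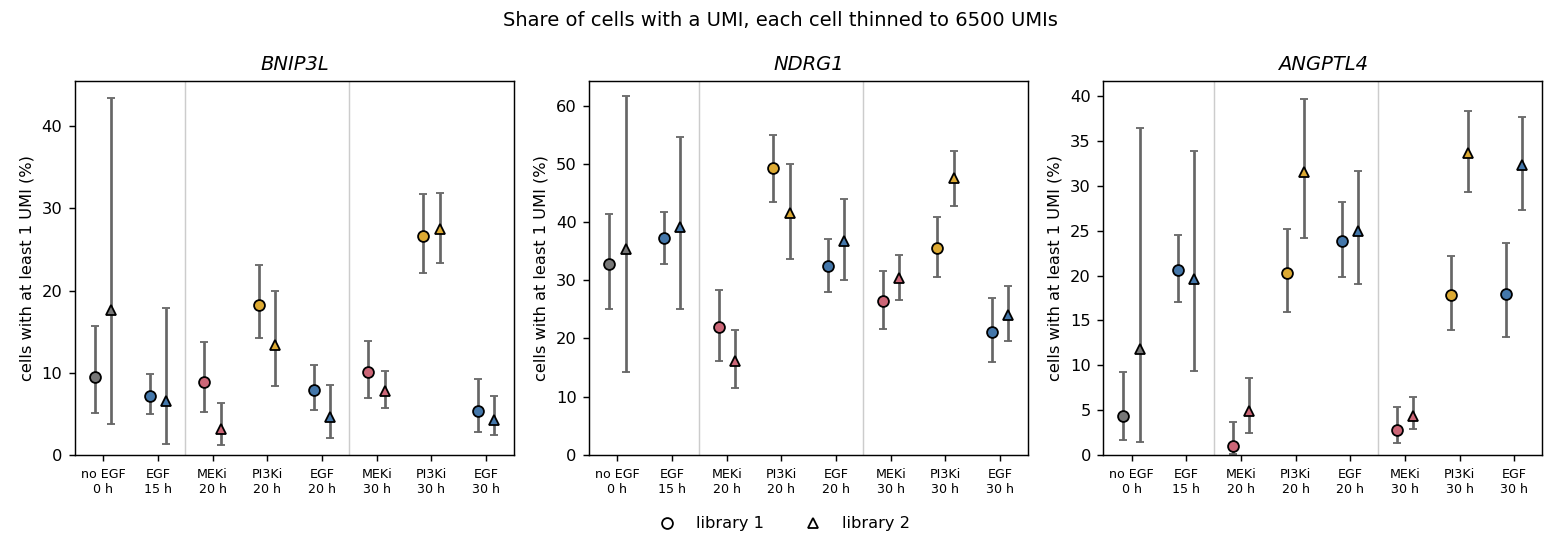
Share of cells with at least 1 UMI (y axis, percent) of BNIP3L, NDRG1 and ANGPTL4 in the 8 conditions (x axis) after thinning each cell to 6500 UMIs, with circles for library 1, triangles for library 2 and exact 95% binomial intervals. The PI3K-inhibited cells at 30 h lie at 26.7% and 27.5% for BNIP3L, and the MEK-inhibited cells at 2.83% and 4.39% for ANGPTL4.

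Across the 16 sums, centred within each library, the levels of BNIP3L and NDRG1 had a Pearson r of 0.73 and those of ANGPTL4 and ADM an r of -0.69, and the other pairs lay between -0.20 and 0.49. The sums share libraries and conditions, so this is a description. Of 4724 genes that averaged 20 CPM or more, the patterns most like that of ANGPTL4 were those of PHLDA1 (r = 0.98), an ERK-induced gene, FAM3C, CDCP1 and CITED4 (r = 0.94 each). Those most like NDRG1 were SELENOS (0.92), KLF13 (0.90), FRAT2 and SLC35D2 (0.89 each). For BNIP3 they included RWDD1 (0.96), DNAJC21 (0.94) and SMIM20 (0.91), and 1 of the 16 BNIP3 sums, that of unstimulated cells in library 2, rests on 2 UMIs. BNIP3L, ADM and VEGFA had means under 20 CPM and were not compared in this way.

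Genes outside the 6 are given with adjusted p values over all genes tested. Their lists were also chosen with earlier results of these data known, so list counts and p values are best read as description. HIF1A, which encodes the HIF-1 alpha subunit, did not pass the test with either inhibitor, at log2 fold changes between -0.22 and 0.12 (edgeR adjusted p from 0.35 to 1). EPAS1, the HIF-2 alpha subunit, rose with the PI3K inhibitor to 76.6 ± 8.99 CPM at 30 h against 38.1 ± 3.67 CPM with EGF alone (SD, n = 2 each; log2 fold change 1.22, SE 0.13, edgeR adjusted p = 5.8e-11). At 20 h it rose by 0.78 (SE 0.14, edgeR adjusted p = 1.7e-05), though not without the library block (edgeR adjusted p = 0.058). With the MEK inhibitor EPAS1 did not pass, at -0.40 and 0.16 (edgeR adjusted p = 0.088 and 0.4). ARNT, their common partner, was called higher with both inhibitors at both times at levels of 7.59 to 9.88 CPM against 4.44 to 5.02 CPM. Both 20 h calls were lost without the library block (edgeR adjusted p = 0.078 with the MEK inhibitor and 0.1 with the PI3K inhibitor), and the one for the PI3K inhibitor also with library totals (edgeR adjusted p = 0.063). VHL and the oxygen-sensing hydroxylase gene EGLN1 did not pass with either inhibitor at either time, at edgeR adjusted p between 0.1 and 0.99. With library totals VHL was called lower with the MEK inhibitor at 30 h (edgeR adjusted p = 0.027) and EGLN1 with the PI3K inhibitor at both times (edgeR adjusted p = 0.027 at 20 h and 0.002 at 30 h).

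Known HIF targets outside glycolysis moved in both directions. Of 26 tested, 6 rose and 8 fell with the MEK inhibitor at 30 h, and 8 rose and 5 fell with the PI3K inhibitor at 30 h. The medians were 0.04 and 0.25 on the log2 scale, beside 0.01 over all genes for each. At 20 h 3 rose and 2 fell with the MEK inhibitor, and 6 rose and 1 fell with the PI3K inhibitor. Under scaling to library totals 4 rose and 5 fell with the PI3K inhibitor at 20 h, and 5 rose and 6 fell at 30 h. The balance at 30 h turned round in G1-called cells, which were fewer. There PI3K inhibition gave 1 higher and 3 lower, while MEK inhibition gave 3 higher and 0 lower. Beside these counts, 19.7% of all tested genes rose and 20% fell under PI3K inhibition at 30 h. For MEK inhibition those shares were 18.9% and 19%. CITED2, a feedback inhibitor of HIF, rose in all 4 comparisons, to 80.5 ± 20.5 CPM with the MEK inhibitor and 64.3 ± 13.3 CPM with the PI3K inhibitor at 30 h against 28.7 ± 5.08 CPM with EGF alone (SD, n = 2 each; edgeR adjusted p = 1.9e-14 and 1.4e-11). LOX, the collagen cross-linking lysyl oxidase, rose with the MEK inhibitor at 30 h, to 30.8 ± 15 CPM against 2.93 ± 0.0012 CPM with EGF alone (SD, n = 2 each; log2 fold change 3.61, SE 0.25, edgeR adjusted p = 2.4e-17), while PLAUR, the urokinase receptor, fell by 1.81 (SE 0.19, edgeR adjusted p = 8e-11). LOX is also a matrix gene, and the summed fibroblast markers were higher in the same sums. DDIT4, an inhibitor of mTORC1, fell with the PI3K inhibitor at 30 h, to 96.6 ± 14 CPM against 223 ± 21.1 CPM with EGF alone (SD, n = 2 each; log2 fold change -0.98, edgeR adjusted p = 1.2e-11).

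More glycolytic HIF targets fell than rose with the PI3K inhibitor at 30 h, when BNIP3L and NDRG1 were higher. Of 17 tested, 8 fell and 2 rose, with a median log2 fold change of -0.43 beside 0.01 over all genes. PGK1, a kinase that yields ATP in glycolysis, fell to 127 ± 16.1 CPM against 267 ± 9.03 CPM with EGF alone (SD, n = 2 each; log2 fold change -0.84, edgeR adjusted p = 1.5e-10). LDHA, which makes lactate, fell to 1180 ± 259 CPM against 2120 ± 159 CPM (log2 fold change -0.62, edgeR adjusted p = 1.3e-06). PGAM1 fell by 0.99 (edgeR adjusted p = 2.4e-12). Within G1-called cells 6 fell and 1 rose. Under the MEK inhibitor at 30 h 5 rose and 5 fell, among them the glucose transporter SLC2A1, which rose by 1.33 (SE 0.12, edgeR adjusted p = 3e-13). At 20 h 1 rose and 3 fell with the MEK inhibitor, and 3 fell with the PI3K inhibitor. Scaling to library totals gave 2 rises and 6 falls for MEK inhibition at 30 h, and 7 falls for PI3K inhibition at 20 h.

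The other mitophagy receptors and adaptors rose together more than they fell. Under the PI3K inhibitor 10 of 17 rose at 20 h and 11 of 17 at 30 h, and under the MEK inhibitor 3 and 12 of 17. In edgeR 0 of 17 fell in each of the 4 comparisons, with 1 lower at an unadjusted p of 0.05 at 30 h for each inhibitor and 0 at 20 h, and DESeq2 also called 0 lower. The medians were 0.51 and 0.69 with the PI3K inhibitor and 0.22 and 0.55 with the MEK inhibitor, at 20 h and 30 h. Over all genes 11.4% and 19.7% were called higher with the PI3K inhibitor, and 4.8% and 18.9% with the MEK inhibitor. Without the library block 5 and 8 of the 17 rose with the PI3K inhibitor, and 0 and 8 with the MEK inhibitor. OPTN, an adaptor that links ubiquitin-marked mitochondria to autophagosomes, rose to 62.3 ± 2.37 CPM with the PI3K inhibitor at 30 h against 23.5 ± 3.81 CPM with EGF alone (SD, n = 2 each; log2 fold change 1.63, edgeR adjusted p = 3.5e-14). PINK1, the kinase that marks damaged mitochondria, rose to 63 ± 4.02 CPM with the MEK inhibitor at 30 h against 23 ± 5.03 CPM with EGF alone (log2 fold change 1.61, edgeR adjusted p = 2.1e-14). With scaling to library totals 9 rose and 2 fell with the PI3K inhibitor at 30 h, and 11 rose and 1 fell with the MEK inhibitor. In G1-called cells, with 62 and 34 cells of EGF alone at 30 h, 3 and 2 rose.

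Lists chosen for other routes to these genes gave the following. Of all genes 11.4% and 19.7% were called higher with the PI3K inhibitor at 20 h and 30 h, and 4.8% and 18.9% with the MEK inhibitor. With the MEK inhibitor 7.15% and 19% were called lower. Of 8 tested FOXO output genes 5 and 6 rose with the PI3K inhibitor at 20 h and 30 h, among them IRS2, the insulin receptor adaptor, by 1.32 and 1.30 (edgeR adjusted p = 2.6e-08 and 1e-09), and 1 and 5 rose with the MEK inhibitor. IRS2 itself fell with the MEK inhibitor at 20 h to 10.2 ± 2.65 CPM against 22.3 ± 9.43 CPM with EGF alone (SD, n = 2 each; edgeR adjusted p = 0.002), a call lost without the library block (edgeR adjusted p = 0.09). Of 9 ERK output genes 8 and 9 fell with the MEK inhibitor at 20 h and 30 h, among them the ERK phosphatase gene DUSP6, at log2 fold changes of -3.01 and -3.32 (edgeR adjusted p = 5.9e-11 and 2.1e-16). Under the PI3K inhibitor 1 of these 9 fell at each time, and 2 and 4 rose.

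Glucocorticoid-induced genes rose with the PI3K inhibitor, 10 of 11 at 20 h and 8 of 11 at 30 h, when NFKBIA, an inhibitor of NF-kB, fell by 0.35 (edgeR adjusted p = 0.015, and 0.72 without the library block). Over all genes 11.4% were called higher at 20 h and 19.7% at 30 h. Without the library block 5 of the 11 were called higher at each time. Scaling to library totals gave 8 higher at 20 h. At 30 h scaling to library totals gave 6 higher and 2 lower, and G1-called cells gave 3 higher. ZBTB16, a transcriptional repressor on this list, rose with the PI3K inhibitor by 1.98 and 1.37 (edgeR adjusted p = 1.9e-17 and 3.6e-13). Under the MEK inhibitor 4 rose and 3 fell at 20 h, and 6 rose and 2 fell at 30 h. TSC22D3, which encodes the glucocorticoid-induced leucine zipper, rose there by 1.29 and 1.91 (edgeR adjusted p = 3.8e-10 and 9.7e-20), while the metallothionein gene MT2A fell at 30 h by 1.94 (edgeR adjusted p = 4.4e-13). Among PPAR targets and lipase regulators, 4 of 13 rose and 1 fell with the MEK inhibitor at 30 h, where 18.9% of all genes rose and 19% fell. A link between this list and the ANGPTL4 level was not tested. PDK4, a brake on pyruvate use, rose to 56.6 ± 7.24 CPM with the MEK inhibitor at 30 h against 20.5 ± 2.56 CPM with EGF alone (SD, n = 2 each; log2 fold change 1.61, edgeR adjusted p = 3.3e-10). At 20 h 1 rose with the MEK inhibitor, and with the PI3K inhibitor 1 rose and 1 fell at 20 h and 3 rose and 2 fell at 30 h. None of the 3 rises with the PI3K inhibitor at 30 h was called with library totals or without the library block.

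Receptors and further ligands for ADM and VEGFA were sparse, and 6 of 14 passed the filter on low counts. Under the PI3K inhibitor 2 fell at 20 h and 4 at 30 h, and with the MEK inhibitor 2 fell at each time. NRP2, a VEGF co-receptor, fell with both at 30 h, to 5.25 ± 0.277 CPM with the MEK inhibitor and 11.5 ± 0.836 CPM with the PI3K inhibitor against 26.2 ± 6.1 CPM with EGF alone (SD, n = 2 each; edgeR adjusted p = 3.4e-12 and 3.2e-05). Its relative NRP1 fell with the PI3K inhibitor at 30 h by 1.78 (SE 0.44, edgeR adjusted p = 0.00099), at 1.4 ± 1.08 CPM against 5.27 ± 0.287 CPM. In the NDRG family and NDRG1 kinase list, with 4 of 7 tested, NDRG3 rose with the MEK inhibitor at 30 h by 0.68 (edgeR adjusted p = 0.00072), a call lost without the library block (edgeR adjusted p = 0.075).

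**Figure D5:**
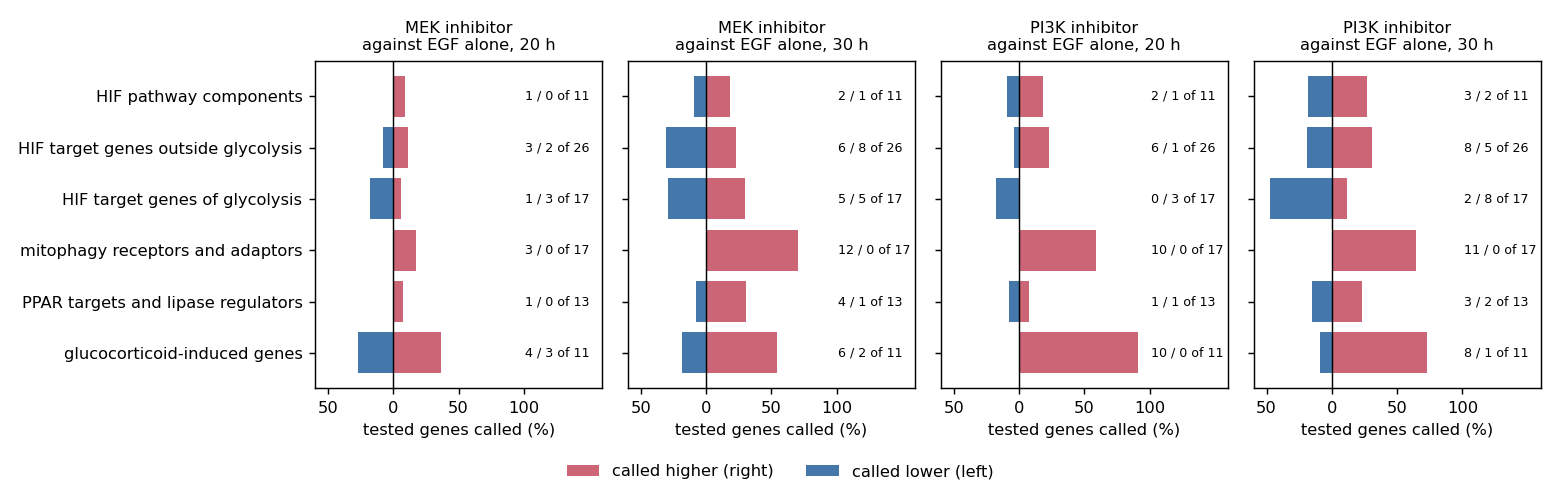
Share of the tested genes of 6 lists (y axis) that edgeR called higher (red, to the right) or lower (blue, to the left) with each inhibitor against EGF alone, in percent (x axis), with the counts printed as higher / lower of tested. Mitophagy genes reach 12 of 17 higher with the MEK inhibitor and 11 of 17 with the PI3K inhibitor at 30 h, where glycolytic HIF targets have 8 of 17 lower.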

How the data were processed

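The authors deposited 2 tables of UMI counts by gene and cell, 1 per biological replicate, as whole numbers with no normalisation. Conditions came from the deposited sample tag tables. Per the labels, each condition carried its own tag of a multiplexing kit before pooling. Cell Ranger 3.0.2, Seurat and GRCh38 are named in the submitters' processing notes, while the sources read state no tag rule, annotation release, strand setting or cell filter. Barcodes tagged as doublets (4848 and 2478) were in neither count table, and doublets within 1 condition could not be seen. All deposited cells were kept.

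Counts of the 16387 genes in both tables were added up over the cells of each condition in each library, which gave 16 sums for edgeR 4.0.16 on R 4.3.3 with limma 3.58.1 (quasi-likelihood F test, filterByExpr, TMM, library as a block). Adjusted p is Benjamini-Hochberg over 11147 genes with a threshold of 0.05, on 7 residual degrees of freedom. The block rests on the pooling of all conditions in 1 library. Deviations from condition means correlated within a library at a median r of 0.589 (0.285 to 0.675) over 28 pairs of conditions. Single-library differences carry a prior count of 2. Tested on simulated counts of the PI3K comparison at 30 h (10833 genes), the fit recovered 36%, 92% and 100% of changes of 0.5, 1 and 2 on the log2 scale and called 10 of 10633 unchanged genes. The simulated counts had 1 spread for all genes, no library effect and changes in 50, 100 and 50 genes. These rates therefore need not hold for the real counts. With 2 sums against 2 an exact permutation test cannot go below p = 0.333. Cycle phases were called with scanpy 1.11.5. Cells under 6500 UMIs were left out of thinned shares.

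The 6 genes and all lists were chosen with earlier results of these data known. Genes outside the 6 were named by rule: per list and comparison up to 3 called genes with the largest rise and 3 with the largest fall, of the same sign in both libraries and with at least 20 CPM in either condition, plus HIF1A, EPAS1, ARNT, VHL, EGLN1, EGLN3, NRP1, DUSP6 and IRS2. EGLN3 did not pass the filter on low counts. One gene whose pattern was like that of a member is not reported here. Alternatives were DESeq2 1.42.0, other scalings, no filter, no block, the 2 conditions alone, fewer cells and, added after seeing the cell numbers, a fit without the 0 h and 15 h sums.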

Additional observations from a re-analysis of the deposited data

Results flagged for a closer look

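For each of the following genes the TMM-scaled fold change against EGF alone had opposite signs at 20 h and at 30 h with the same inhibitor, in both libraries. The differences between times were not tested, and the values are log2 fold changes against EGF alone.

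With the MEK inhibitor NDRG1 was at -0.71 at 20 h and 0.51 at 30 h, a difference of 1.22. BNIP3 was at 0.25 and -0.07, a difference of -0.31, with standard errors of 0.15 and 0.14 for the values at the 2 times. Among listed genes outside the 6, EPAS1 was at -0.40 and 0.16 (difference 0.56), MXI1 at -0.77 and 0.12 (difference 0.89), and NFKBIA at -0.25 and 0.26 (difference 0.51). The values of EPAS1 and MXI1 at 30 h had standard errors of 0.14 and 0.19. Without TMM scaling their mean levels there were below EGF alone, at 37.8 against 38.1 CPM and 14 against 14.3 CPM.

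With the PI3K inhibitor ACADM was at 0.32 at 20 h and -0.40 at 30 h (difference -0.72). NFKBIA was at 0.44 and -0.35 (difference -0.79). WSB1 was at 0.95 and -0.12 (difference -1.07).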

How the results depend on the processing

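The count of genes called over all 11147 moved by more than 1.5 times under some settings. Without the replicate block it was 342 for MEK inhibition at 20 h (1332 with the block) and 2137 at 30 h (4216), 840 and 2384 for PI3K inhibition (2607 and 4428), 999 and 2703 with the MEK against the PI3K inhibitor (2410 and 4632), 1877 for 15 h of EGF against 0 h (3116) and 670 for 30 h against 15 h (2013). In cells called G1 alone it was 497 and 901 with the MEK inhibitor, 1063 and 1062 with the PI3K inhibitor, 1257 between inhibitors at 20 h and 537 for 30 h against 15 h, from fewer cells and 8974 genes. DESeq2 gave 791 with the MEK inhibitor at 20 h and 1325 for 30 h against 15 h of EGF, and the 2 conditions alone gave 2065 for 15 h against 0 h. Where no cause is given here, it was not tested. Scaling to library totals moved the split of higher and lower calls, to 1268 and 3688 with the PI3K inhibitor at 30 h (2201 and 2227 with TMM), 796 and 2177 at 20 h (1275 and 1332), 1349 and 3259 with the MEK inhibitor at 30 h (2103 and 2113) and 409 and 983 at 20 h (535 and 797). It also gave 1687 and 907 between inhibitors at 20 h (1248 and 1162), 2260 and 1152 for 15 h against 0 h (1567 and 1549) and 1432 and 677 for 30 h against 15 h (1112 and 901).

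Of the fold changes of the 6 genes, 1 past the threshold changed sign: BNIP3L for 30 h against 15 h of EGF was 0.15 in G1-called cells. Those cells held 11 and 3 UMIs of BNIP3L at 30 h, and the libraries differed in direction. In the 9 settings run for each inhibitor against EGF alone, ANGPTL4 with the MEK inhibitor and BNIP3L and NDRG1 with the PI3K inhibitor stayed past the threshold at both times. These contrasts chose the genes and every setting used these same data. The calls therefore describe how the fit depends on processing and are no test of the genes. With the PI3K inhibitor at 30 h the 6 genes past the threshold became 2 without the block and 4 with DESeq2, with library totals and in G1-called cells. ADM lost each of its calls without the block. No count of calls could be had with 1 library left out, because no residual degrees of freedom remain. From 1 library alone BNIP3L with the PI3K inhibitor was 1.76 to 2.01 at 20 h and 2.96 to 3.35 at 30 h, and ANGPTL4 with the MEK inhibitor -3.88 to -2.37 and -3.30 to -2.88. Depth limits VEGFA, BNIP3L and ADM, with 585, 1156 and 1171 UMIs in all, and the values at 0 h and 15 h of library 2.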
